A study of Mus musculus with 24 samples.

Results

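The genes described here encode the protein part of the mitochondrial ribosome in 3T9 cells, an immortalised line of mouse fibroblasts. They were taken by symbol, as every gene named Mrpl or Mrps with a number and without a pseudogene suffix, provided that it reached 1 RPKM (reads corrected for the length of the gene and the depth of the library) in at least 3 libraries. All 76 genes found by symbol among the 21671 of the table met that level, so the threshold removed none. The lowest single value was 4.16 RPKM, for Mrps34, and no gene of the family lay near the threshold on either side.

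The mitochondrial ribosome translates the few messages made from mitochondrial DNA, which encode core subunits of the respiratory chain and of the ATP synthase. Its RNAs come from the mitochondrial genome, while all of its proteins are encoded in the nucleus, made in the cytosol and imported. The proteins of the large subunit (mostly Mrpl) surround the site where the peptide bond is formed and the exit tunnel, and those of the small subunit (mostly Mrps) hold the messenger RNA and the decoding site. Myc, a transcription factor that binds E-box DNA with its partner Max, is known as a regulator of mitochondrial biogenesis in fibroblasts. By role, 49 members belonged to the large subunit, including Mrps30 and Mrps18a, which carry small-subunit names but sit in the large one. A further 26 belonged to the small subunit. The last, Mrps36, is now regarded as part of the 2-oxoglutarate dehydrogenase complex and was kept because the symbol rule includes it.

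The cells had been infected with a vector for MycER in its WT, HEA or RA form, or with an empty vector (EV), and all were kept in OHT (4-hydroxytamoxifen), the ligand that activates MycER, for 4 h or 8 h. MycER is Myc fused with the part of the oestrogen receptor that binds hormone. In HEA, residues that contact the bases of the E-box are replaced, and in RA, arginines that contact the DNA backbone. Each of the 8 groups held 3 libraries. Cells without OHT were not analysed here, and cells of all groups still carry their own Myc gene. The labels do not say that the libraries of a group came from separate cultures, so the p-values below measure the spread between these libraries, which may be technical.

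As a check of the labels of MycER against EV, Esr1, the oestrogen receptor gene, had 11.9 ± 0.664 RPKM in WT, 11.5 ± 1.24 RPKM in HEA and 11.7 ± 0.617 RPKM in RA at 4 h, against 0.277 ± 0.117 RPKM in EV (SD, n = 3 each). Esr1 was alike in WT, HEA and RA, so it cannot check the labels of form or of time. Of 9 fibroblast markers, 8 averaged at least 1 RPKM, whereas the epithelial, endothelial and muscle markers summed to at most 0.492, 0.6 and 0.233 RPKM in any library, with Epcam and Myod1 at 0 throughout. The fibroblast marker that fell short was Thy1, with a mean of 0.179 RPKM. The leukocyte markers summed to 8.34 to 16.6 RPKM, and the adipocyte markers to 1.54 to 6.29 RPKM. Among the leukocyte markers, Cd68 had a mean of 10.9 RPKM and Csf1r of 1.35 RPKM, with Emr1 at 0. The libraries held 9.82 to 12.8 M reads, and WT libraries averaged 10.1 M at 4 h and 10.8 M at 8 h, against 11.1 M and 11.7 M in EV. For the individual members this depth gave on average 95.0 to 1017 reads per library. Libraries were ranked by distance from the others of their group, as the root mean square of log2 differences over the tested genes. The 3 highest were WT replicate 3 at 4 h (0.387), WT replicate 3 at 8 h (0.366) and EV replicate 2 at 4 h (0.353). The remaining libraries lay between 0.202 and 0.335, the highest of them HEA replicate 2 at 4 h. The 3 were taken by rank, without a cut-off, and are called below the libraries that stood apart. Counts that rest on these libraries are given below with and without them.

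The 250 bases before the annotated transcription start are printed below for some of the genes described. They run 5′ to 3′ along each gene and come from RefSeq on GRCm38.p6. The expression values were made on another build, mm9, and were matched by symbol. The genes shown are Mrpl22, Mrpl16, Mrps30, Mrpl37 and Mrpl49. Mrpl22, Mrpl16 and Mrps30 rose in WT, and Mrpl49 fell in HEA. Mrpl37 holds an E-box and was called higher in WT at 8 h, a call lost on leaving out single libraries. Capitals mark letters of CACGTG (the canonical E-box), CACGCG (a variant E-box), CCGGAAG (the core bound by ETS factors such as GABP), GCATGCG (the core of the NRF1 motif) or GATGGCG (the core of the YY1 motif), on either strand. The windows lie at chr11:58171414-58171663 (plus strand), chr19:11770165-11770414 (plus strand), chr13:118387253-118387502 (minus strand), chr4:107066867-107067116 (minus strand) and chr19:6057756-6058005 (minus strand), in the order given.
Mrpl22: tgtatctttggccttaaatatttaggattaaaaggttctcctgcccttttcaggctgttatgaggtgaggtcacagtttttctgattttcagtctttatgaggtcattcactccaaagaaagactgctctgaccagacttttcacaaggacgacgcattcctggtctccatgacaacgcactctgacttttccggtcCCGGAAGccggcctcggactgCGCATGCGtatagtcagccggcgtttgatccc
Mrpl16: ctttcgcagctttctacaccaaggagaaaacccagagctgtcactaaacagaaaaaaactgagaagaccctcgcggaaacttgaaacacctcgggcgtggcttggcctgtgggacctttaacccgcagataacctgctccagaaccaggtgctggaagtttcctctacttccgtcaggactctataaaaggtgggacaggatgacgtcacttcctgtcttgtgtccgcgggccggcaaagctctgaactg
Mrps30: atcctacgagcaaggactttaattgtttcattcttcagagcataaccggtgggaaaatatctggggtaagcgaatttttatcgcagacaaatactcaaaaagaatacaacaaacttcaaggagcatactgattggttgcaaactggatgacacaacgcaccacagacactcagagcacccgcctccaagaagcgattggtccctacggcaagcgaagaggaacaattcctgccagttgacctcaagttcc
Mrpl37: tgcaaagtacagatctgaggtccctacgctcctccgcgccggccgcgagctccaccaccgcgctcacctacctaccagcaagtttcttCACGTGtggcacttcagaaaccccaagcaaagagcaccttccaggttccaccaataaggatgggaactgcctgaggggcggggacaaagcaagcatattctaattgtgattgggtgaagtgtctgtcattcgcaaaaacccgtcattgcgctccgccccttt
Mrpl49: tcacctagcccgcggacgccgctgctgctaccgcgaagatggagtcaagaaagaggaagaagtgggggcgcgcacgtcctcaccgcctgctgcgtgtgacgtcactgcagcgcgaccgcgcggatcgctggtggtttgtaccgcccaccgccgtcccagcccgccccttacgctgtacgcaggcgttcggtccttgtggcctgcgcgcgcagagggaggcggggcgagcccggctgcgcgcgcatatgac
Mrpl22 held an ETS core and, close to its start, an NRF1 core whose matches on the 2 strands overlap. Mrpl37 held the canonical E-box. The windows of Mrpl16, Mrps30 and Mrpl49 held none of the 5 motifs in these bases, and the variant E-box of Mrpl16 and the YY1 core of Mrpl37 lay in the 50 bases after the start, which are not printed.

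Windows of 300 bases, from 250 before to 50 after the start, were found for 67 of the 76 members. CACGTG was present in 5 of the 67, or 7.46%, against 8.09% of 27025 genes, and the 5 were Mrpl2, Mrpl20, Mrpl36, Mrpl37 and Mrps18c. CACGCG was present in 13 members (19.4%), against 10.5% of all genes. The motifs of the factors known from other studies as regulators of nuclear genes for mitochondria stood as follows. The ETS core was found in 24 members (35.8%, against 9.93% of all genes), the NRF1 core in 8 (11.9%, against 4.01%) and the YY1 core in 8 (11.9%, against 4.04%). The shares of all genes are over every gene with a window, expressed or not, whereas all members are expressed. Shares over the tested genes were not computed, so these differences cannot be read as particular to the family. These are matches of letters in short windows and not measured binding sites. Every motif was searched on both strands, and a match of the NRF1 core can overlap its own match on the other strand.

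Levels differed more between the genes than between the conditions. RPKM is scaled by gene length, so levels of different members can be set side by side only as far as the lengths used fit the messages. Mrps25 had on average 640.8 reads per library over 6068 bases, and Mrpl20 had 552.8 reads over 665 bases. Over the 24 libraries the mean of a member ran from 6.29 to 76.1 RPKM, a 12.1-fold range, with a median of 31.6 RPKM, against a median of 16.7 RPKM over the 12268 tested genes. The highest were Mrpl20, whose bacterial counterpart is needed early in the assembly of the large subunit (76.1 RPKM), Mrps26, a small-subunit protein without a bacterial counterpart (75.8 RPKM), and Mrpl18 of the large subunit (71.4 RPKM). These neighbours did not separate, since single libraries spanned 67.6 to 96.9 RPKM for Mrpl20, 59.1 to 98.6 RPKM for Mrps26 and 63.9 to 86.0 RPKM for Mrpl18. The lowest were Mrps34 (6.29 RPKM), Mrps31 (9.61 RPKM) and Mrps25 (9.67 RPKM), all of the small subunit, with single libraries between 4.16 and 11.1, 6.61 and 14.6, and 8.08 and 13.1 RPKM. Proteins that occur together in 1 particle thus had RPKM values far apart in these cells. How much of this range comes from the lengths used was not tested.

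**Figure D1:**
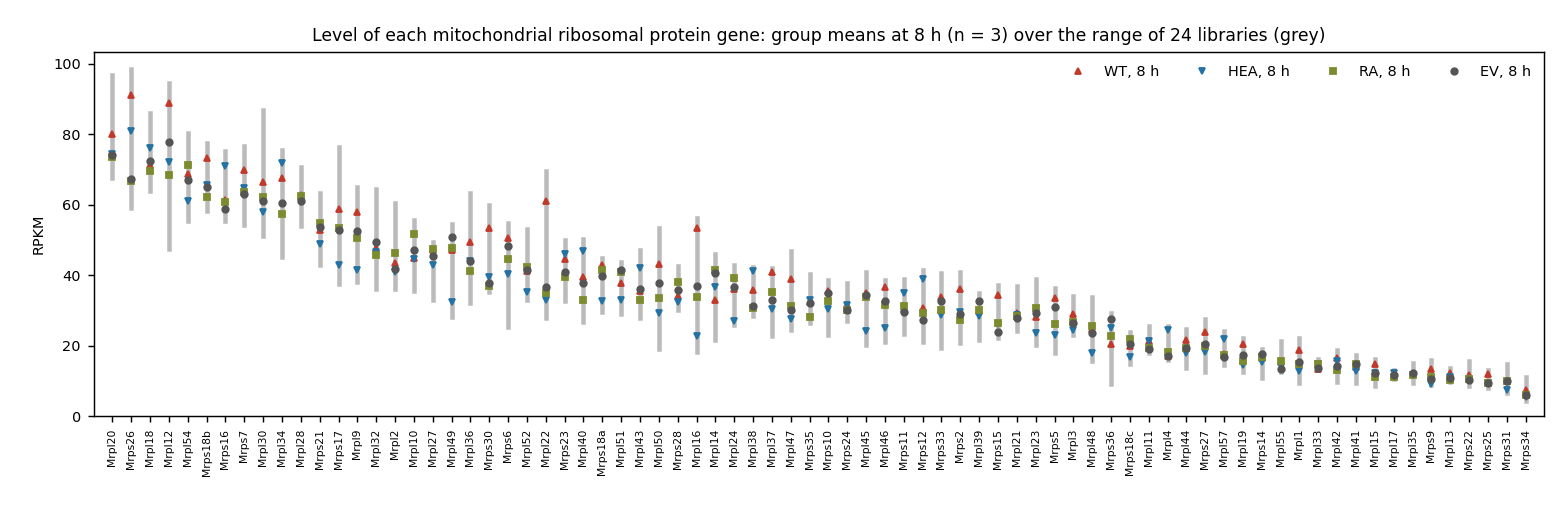
Level of each of the 76 genes in RPKM, ordered by the mean over all libraries. Symbols are group means at 8 h (n = 3) for WT, HEA, RA and EV and grey bars span all 24 libraries. Mrpl20 is the highest at 76.1 RPKM and Mrps34 the lowest at 6.29 RPKM, and for Mrpl22, Mrpl16 and Mrps30 the WT mean lies above the other 3 means.

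WT MycER was compared with EV to ask whether the family moved on activation of Myc. Here and below, higher and lower mean past an adjusted p of 0.05 with limma on log2(RPKM + 0.5), with adjustment over all tested genes. At 4 h, 21 of the 76 members were higher in WT and none was lower, which is 27.6% of the members, against 11.6% of all tested genes called higher and 14.4% called lower. At 8 h, 12 members were higher and none was lower, 15.8% of the members, against 15.2% of all tested genes called higher and 20.1% called lower, so that the share of members called higher at 8 h was near the background. The median log2 fold change of the members was 0.18 at 4 h and 0.09 at 8 h, against -0.01 and -0.03 over all tested genes. The changes were small. Summed over the 76 members, the level was 2842 ± 287.5 RPKM in WT and 2496 ± 100.7 RPKM in EV at 4 h, and 2842 ± 169 RPKM in WT and 2624 ± 142.8 RPKM in EV at 8 h (SD, n = 3 each). RPKM is a share of a library's reads, so a change in RNA content or in the number of cells cannot be told apart from a change per cell.

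The count at 4 h rested on few libraries. Without WT replicate 3 it was 4, without EV replicate 2 it was 8, and with only the 6 libraries compared in the fit it was 3. Leaving out WT replicate 1 at 8 h gave 7 members higher at that time. Without the 3 libraries that stood apart, 5 members were higher at 4 h and 19 at 8 h, with none lower at either time. Here and below, the share of all tested genes called was not computed for such alternative fits. A shift particular to the members cannot be told apart from a general shift in calls. The median at 4 h was 0.09 without WT replicate 3. In the authors' deposited table, 9 members were higher at 4 h and 12 at 8 h, with none lower. The corresponding shares of all genes with an adjusted p in that table were 7.84% and 15.6% higher and 9.2% and 17% lower.

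**Figure D2:**
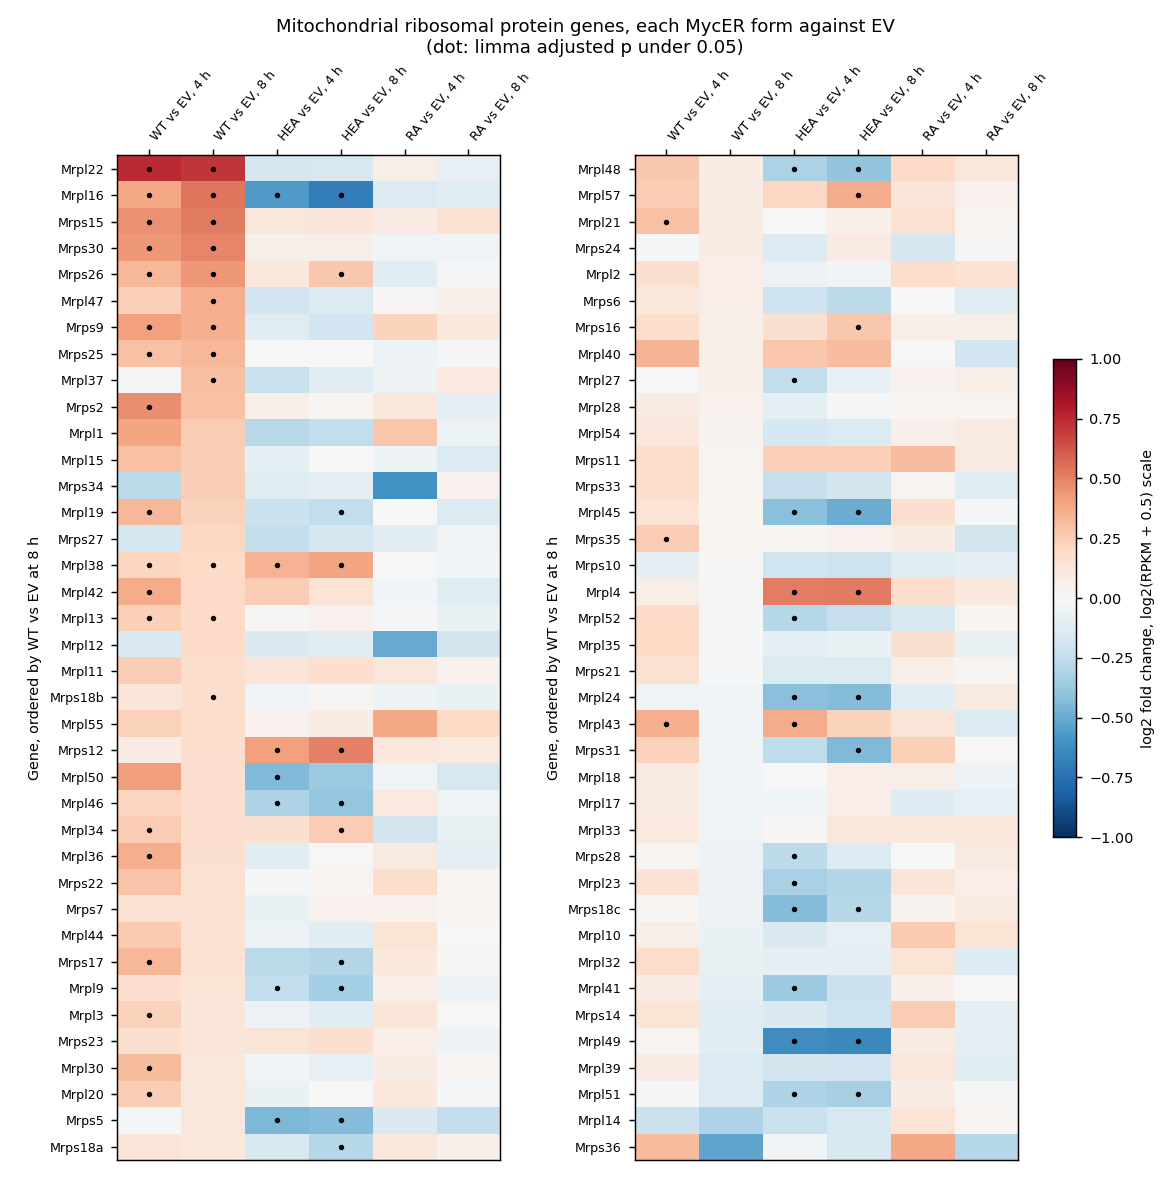
Log2 fold change of each of the 76 genes (rows, ordered by WT against EV at 8 h) for WT, HEA and RA against EV at 4 h and 8 h, with dots where the adjusted p is under 0.05. Dots in the WT columns are all on positive values (21 at 4 h, 12 at 8 h), those in the HEA columns lie on both signs, and the RA columns have none.

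Mrpl22, which lines the exit tunnel of the large subunit, showed the largest rise at both times. In WT its libraries had 48.2, 60.6 and 67.6 RPKM at 4 h and 69.5, 59.9 and 53.4 RPKM at 8 h. In EV they had 37.5, 27.9 and 39.6 RPKM at 4 h and 37.3, 34.7 and 38.2 RPKM at 8 h. All 6 WT libraries were above all 6 EV libraries. The log2 fold change was 0.74 ± 0.13 at 4 h (SE, adjusted p = 0.000293) and 0.72 ± 0.13 at 8 h (adjusted p = 0.000226). It was 0.48 at 4 h without the libraries that stood apart, with an adjusted p of 0.00766.

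Mrps15, the counterpart of a bacterial protein that binds the small-subunit RNA early in assembly, had 35.7, 32.4 and 37.2 RPKM in WT at 4 h, against 27.6, 25.7 and 23.2 RPKM in EV. At 8 h it had 34.3, 32.9 and 36.3 RPKM in WT, against 27.1, 22.7 and 22.1 RPKM in EV. The groups did not overlap at either time, and the rises were 0.45 ± 0.08 (adjusted p = 0.000565) and 0.52 ± 0.08 (adjusted p = 7.63e-05). Mrps30, a large-subunit protein peculiar to mitochondria, rose by a similar amount. It had 53.8, 47.5 and 59.9 RPKM in WT at 4 h, against 42.3, 40.9 and 35.6 RPKM in EV, and 52.5, 54.2 and 53.6 RPKM in WT at 8 h, against 39.8, 37.5 and 36.4 RPKM in EV. Its log2 fold changes were 0.43 ± 0.09 (adjusted p = 0.00124) and 0.49 ± 0.09 (adjusted p = 0.000223), again without overlap between the groups. At 4 h the call of Mrps30 narrowly ended with only the compared groups in the fit (adjusted p = 0.0511).

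Mrps26, the second in level, had 90.6, 78.9 and 97.2 RPKM in WT at 4 h, against 70.4, 76.8 and 64.5 RPKM in EV, and 89.2, 85.3 and 98.6 RPKM in WT at 8 h, against 71.5, 60.4 and 69.8 RPKM in EV. The lowest WT library at 4 h lay only just above the highest EV library, while at 8 h the groups were well apart. The rise was 0.33 ± 0.09 at 4 h (adjusted p = 0.0142) and 0.44 ± 0.09 at 8 h (adjusted p = 0.00124), and at 4 h it was no longer called without WT replicate 3 (adjusted p = 0.0884), without EV replicate 3 (adjusted p = 0.0745) or with only the compared groups (adjusted p = 0.0785). Mrps2, the counterpart of a bacterial protein that joins the small subunit late in its assembly, had 31.5, 36.1 and 40.2 RPKM in WT at 4 h, against 28.9, 20.7 and 28.8 RPKM in EV. Its rise of 0.46 ± 0.13 (adjusted p = 0.0126) rested on the low EV replicate 2 and the high WT replicate 3, and without either the adjusted p was 0.0918 and 0.0769. It was 0.103 with only the compared groups and 0.185 without the libraries that stood apart. At 8 h the difference was 0.29 ± 0.13 (adjusted p = 0.0886).

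Mrpl47, a large-subunit protein, had 42.2, 38.4 and 36.3 RPKM in WT at 8 h, against 28.9, 31.5 and 29.95 RPKM in EV. Its rise of 0.37 ± 0.10 (adjusted p = 0.00897) became 0.31 without WT replicate 1, with an adjusted p of 0.0501. At 4 h WT replicate 3 alone was far above EV, with 46.8 RPKM, against 32.7 and 33.3 RPKM in the other two, and the difference was 0.24 ± 0.10 (adjusted p = 0.0984). Mrps25, of the lowest levels, had 13.1, 12.1 and 10.9 RPKM in WT at 8 h, against 9.4, 9.32 and 9.51 RPKM in EV, a rise of 0.33 ± 0.09 (adjusted p = 0.00616), and rose by 0.29 ± 0.09 at 4 h (adjusted p = 0.0208), which was not called without WT replicate 3 or EV replicate 2 (adjusted p = 0.118 and 0.0825), with only the compared groups (adjusted p = 0.156) or without the libraries that stood apart (adjusted p = 0.191).

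Called rises occurred in both subunits. Of the 49 large-subunit members, 14 were higher at 4 h and 7 at 8 h, with medians of 0.21 and 0.08, and of the 26 small-subunit members, 7 were higher at 4 h and 5 at 8 h, with medians of 0.15 and 0.12. The 2 times use different libraries and can be compared by membership. Here and below, the overlap between the times was not computed over all tested genes. These percentages therefore do not show whether the members kept their calls more often than other genes. There were 9 members called at both, Mrpl13, Mrpl16, Mrpl22, Mrpl38, Mrps9, Mrps15, Mrps25, Mrps26 and Mrps30, which are 42.9% of the 21 members called at 4 h and 75.0% of the 12 called at 8 h. Mrps9, the counterpart of a bacterial protein that reaches the peptidyl site, had 14.4 ± 1.27 RPKM in WT and 10.7 ± 0.572 RPKM in EV at 4 h, a rise of 0.41 ± 0.09 (adjusted p = 0.00136), and rose by 0.35 ± 0.09 at 8 h (adjusted p = 0.00282). With limma no member passed for a change of the WT effect between 4 h and 8 h, where 0.0163% of all tested genes passed as lower and none as higher. The smallest adjusted p of a member was 0.383, and 2 members had an unadjusted p under 0.05, against 11.4% of all tested genes.

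**Figure D3:**
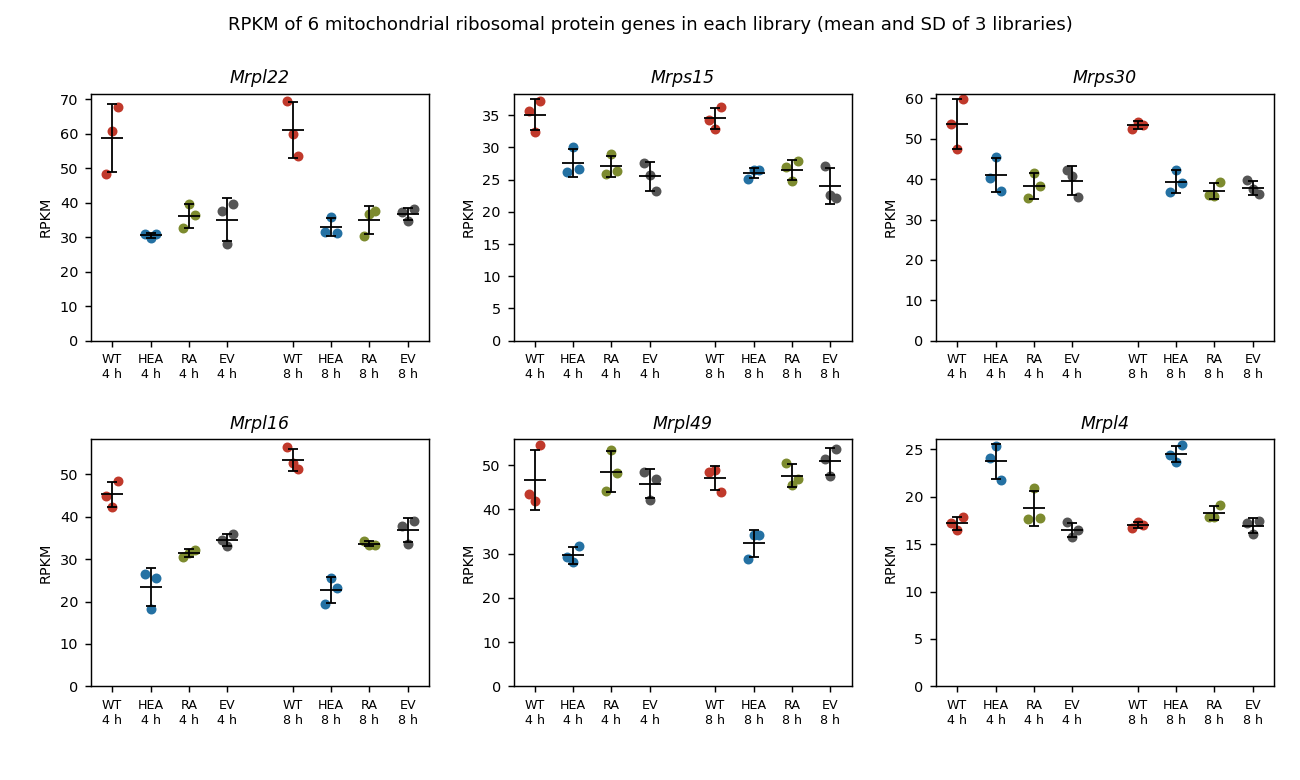
RPKM in each library (points) with the mean and SD of 3 libraries (bars) for WT, HEA, RA and EV at 4 h and 8 h. In Mrpl22, Mrps15 and Mrps30 the WT libraries lie above all EV libraries, in Mrpl16 WT lies above and HEA below EV, in Mrpl49 HEA lies below EV, and in Mrpl4 HEA lies above EV.

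Among members that did not pass, those of the stalk, which recruits translation factors to the large subunit, are given because they act together. Mrpl12, which also binds the mitochondrial RNA polymerase, had 74.3, 74.1 and 54.4 RPKM in WT at 4 h, against 57.9, 83.5 and 84.1 RPKM in EV, and 89.7, 82.2 and 94.4 RPKM in WT at 8 h, against 78.9, 71.9 and 82.2 RPKM in EV. The groups overlapped at 4 h, and at 8 h the lowest WT library was level with the highest EV library. The differences were -0.15 ± 0.15 (adjusted p = 0.524) and 0.19 ± 0.15 (adjusted p = 0.359). Mrpl10, the base of the stalk, differed by 0.05 ± 0.09 (adjusted p = 0.707) and -0.07 ± 0.09 (adjusted p = 0.603). For Mrpl11 the differences were 0.25 ± 0.09 (adjusted p = 0.0563) and 0.18 ± 0.09 (adjusted p = 0.153). Among the members at the highest levels, Mrpl20 passed at 4 h with 0.24 ± 0.08 (adjusted p = 0.0226), a call lost without WT replicate 3 (adjusted p = 0.161) or EV replicate 3 (adjusted p = 0.108), with only the compared groups (adjusted p = 0.133) or without the libraries that stood apart (adjusted p = 0.111), and had 0.11 ± 0.08 at 8 h (adjusted p = 0.269). Mrpl18 differed by 0.08 ± 0.09 (adjusted p = 0.547) and -0.03 ± 0.09 (adjusted p = 0.847). Mrps34 varied widely, with 4.93, 6.15 and 11.1 RPKM in WT at 8 h, against 7.13, 4.81 and 5.71 RPKM in EV. Mrps36 had the most negative value in WT at 8 h, -0.53 ± 0.34 (adjusted p = 0.242), with 24.9, 26.1 and 10.5 RPKM in WT, against 26.9, 27.7 and 28.3 RPKM in EV. WT replicate 3 was the low library, and every EV library was above every WT library.

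The HEA form gave a mixed picture in which falls outnumbered rises. Against EV, 4 members were higher and 16 lower at 4 h, and 7 were higher and 14 lower at 8 h. Of all tested genes, 17.7% were higher and 25.5% lower at 4 h, and 20.2% higher and 27.5% lower at 8 h, so the members' 21.1% and 18.4% called lower were below the background and their 5.26% and 9.21% called higher further below. The median member changed by -0.12 at 4 h and -0.09 at 8 h, against -0.06 and -0.05 over all tested genes. The balance between rises and falls moved with the scaling. It was 7 higher and 11 lower at 4 h and 13 and 12 at 8 h with centring on library medians, 9 and 14 at 4 h and 12 and 12 at 8 h with quantile normalisation, and 10 and 10 at 4 h and 13 and 11 at 8 h after removal of a trend on reads per base. The median of the members was negative under each of these. Without the libraries that stood apart, 4 were higher and 20 lower at 4 h and 11 and 18 at 8 h. Without HEA replicate 2, 7 members were lower at 4 h, and without EV replicate 1, 8. At 8 h, 9 were lower without HEA replicate 1, and 4 were higher without HEA replicate 2 or without EV replicate 2. In the authors' deposited table, 4 members were higher and 5 lower at 4 h, where 16.8% of genes were higher and 16.2% lower, and 10 were higher and 13 lower at 8 h, where 24.5% were higher and 25.3% lower.

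Mrpl49, a mitochondria-specific protein of the large subunit, showed the largest fall at 4 h. It had 29.2, 28.1 and 31.6 RPKM in HEA at 4 h, against 48.5, 42.3 and 46.8 RPKM in EV, and 28.8, 34.2 and 34.1 RPKM in HEA at 8 h, against 51.5, 47.7 and 53.6 RPKM in EV. No HEA library reached the lowest EV library, and the log2 fold changes were -0.62 ± 0.10 (adjusted p = 2.72e-05) and -0.65 ± 0.10 (adjusted p = 1.34e-05). Mrpl24, a protein at the mouth of the exit tunnel, had 26.3, 29.8 and 27.99 RPKM in HEA at 4 h, against 38.0, 38.5 and 36.3 RPKM in EV, and 25.9, 29.1 and 26.2 RPKM in HEA at 8 h, against 39.3, 34.9 and 36.02 RPKM in EV. It fell by 0.42 ± 0.07 on the log2 scale at 4 h (adjusted p = 0.000105) and by 0.43 ± 0.07 at 8 h (adjusted p = 6e-05). Mrpl49 and Mrpl24 overlap Syvn1 and Rrnad1 in RefSeq, as 24 of the 76 members overlap another gene. Other members named in the text with such an overlap include Mrpl2, Mrpl18, Mrpl37, Mrpl48, Mrps2, Mrps9, Mrps18a, Mrps18b, Mrps25 and Mrps27. No source used here gives the strand setting of the counting, so reads of the neighbour cannot be told apart.

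Mrpl16, which lies beside the transfer RNA sites of the large subunit, went in opposite directions in WT and HEA. Its WT libraries had 44.95, 42.4 and 48.4 RPKM at 4 h, its HEA libraries 26.4, 18.2 and 25.7 RPKM, its RA libraries 30.4, 31.5 and 32.2 RPKM and its EV libraries 34.6, 33.1 and 35.99 RPKM. At 8 h the values were 56.3, 52.7 and 51.2 RPKM in WT, 19.5, 25.6 and 23.1 RPKM in HEA, 34.3, 33.3 and 33.3 RPKM in RA and 37.7, 33.6 and 39.0 RPKM in EV. Every WT library was above and every HEA library below all EV libraries of its time. Against EV, WT rose by 0.38 ± 0.11 at 4 h (adjusted p = 0.0131) and 0.53 ± 0.11 at 8 h (adjusted p = 0.000707). The WT rise at 4 h was not called without WT replicate 3 (adjusted p = 0.0665) or without the libraries that stood apart (adjusted p = 0.125). HEA fell by 0.57 ± 0.11 (adjusted p = 0.000285) and 0.69 ± 0.11 (adjusted p = 3.15e-05) on the same scale, against the same EV libraries. The difference between WT and HEA itself was 0.95 ± 0.11 at 4 h (adjusted p = 5.06e-07) and 1.22 ± 0.11 at 8 h (adjusted p = 1.08e-08), the smallest p of any member at each time.

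Some members rose in HEA. Mrpl4, which reaches into the exit tunnel, had 24.1, 25.4 and 21.8 RPKM in HEA at 4 h, against 17.3, 15.8 and 16.5 RPKM in EV, and 24.4, 23.7 and 25.4 RPKM in HEA at 8 h, against 17.3, 16.03 and 17.5 RPKM in EV. It rose by 0.51 ± 0.07 (adjusted p = 1.44e-05) and 0.52 ± 0.07 (adjusted p = 8.45e-06), whereas in WT the differences from the same EV libraries were 0.06 ± 0.07 (adjusted p = 0.6) and 0.01 ± 0.07 (adjusted p = 0.941). WT was lower than HEA by test, at -0.45 ± 0.07 (adjusted p = 4.29e-05) and -0.51 ± 0.07 (adjusted p = 7.28e-06). Mrps12, part of the decoding centre, rose in HEA by 0.41 ± 0.13 at 4 h (adjusted p = 0.0133) and 0.50 ± 0.13 at 8 h (adjusted p = 0.00295). Mrpl38, a protein of the central protuberance of the large subunit that bacteria lack, rose in HEA by 0.34 ± 0.07 (adjusted p = 0.000441) and 0.39 ± 0.07 (adjusted p = 9.48e-05). At 8 h, Mrps26 rose in HEA by 0.27 ± 0.09 (adjusted p = 0.0257), a call lost without HEA replicate 2 (adjusted p = 0.0583), HEA replicate 3 (adjusted p = 0.1) or EV replicate 2 (adjusted p = 0.137).

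Of the members higher in HEA, 3 were called at both times (Mrpl4, Mrpl38 and Mrps12), which are 75.0% of those called at 4 h and 42.9% of those called at 8 h. Lower at both times were 10 members, Mrpl9, Mrpl16, Mrpl24, Mrpl45, Mrpl46, Mrpl48, Mrpl49, Mrpl51, Mrps5 and Mrps18c, or 62.5% of those at 4 h and 71.4% of those at 8 h. Mrpl45 anchors the ribosome to the inner membrane at the exit tunnel, and it fell by 0.42 ± 0.12 (adjusted p = 0.00933) and 0.50 ± 0.12 (adjusted p = 0.00236).

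The S18 family has 3 paralogues. Mrps18c was lower in HEA, with 16.9, 14.6 and 16.4 RPKM at 4 h, against 21.95, 20.99 and 22.3 RPKM in EV (-0.44 ± 0.09, adjusted p = 0.00045), and 15.6, 16.7 and 18.1 RPKM at 8 h, against 21.3, 20.3 and 19.9 RPKM in EV (-0.28 ± 0.09, adjusted p = 0.0119). Mrps18a differed by -0.16 ± 0.08 at 4 h (adjusted p = 0.101) and fell by 0.29 ± 0.08 on the log2 scale at 8 h (adjusted p = 0.00471). For Mrps18b the HEA values were -0.03 ± 0.05 (adjusted p = 0.653) and 0.01 ± 0.05 (adjusted p = 0.866), and in WT it rose by 0.18 ± 0.05 at 8 h (adjusted p = 0.0161). The rise of Mrps18b was lost without WT replicate 1 (adjusted p = 0.0517), EV replicate 1 (adjusted p = 0.0547) or EV replicate 2 (adjusted p = 0.0544), and the 8 h fall of Mrps18c without HEA replicate 1 (adjusted p = 0.0651) or with voom on recovered reads (adjusted p = 0.0559). Mrps31, of the small subunit, fell by 0.44 ± 0.15 in HEA at 8 h (adjusted p = 0.0235), a call lost without HEA replicate 1 (adjusted p = 0.094), EV replicate 1 (adjusted p = 0.0613) or EV replicate 3 (adjusted p = 0.0617), with quantile normalisation (adjusted p = 0.0512) and with the reads-per-base trend removed (adjusted p = 0.0663).

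No member passed for RA against EV at either time with limma. Among all tested genes, 2.58% were higher and 2.73% lower at 4 h, and 1.49% higher and 1.29% lower at 8 h. At an unadjusted p under 0.05 there were 8 members at 4 h, 5 higher and 3 lower, and 2 at 8 h, both lower, against 20.4% and 17.6% of all tested genes, a share larger than that of the members at each time. With voom on recovered reads 1 member was lower at 4 h, with quantile normalisation 1 was higher at 4 h, and the authors' deposited table had 1 lower at each time, Mrpl12 at 4 h and Mrps5 at 8 h. In that table, 2.22% of all genes were higher and 3.13% lower at 4 h, and 7.65% higher and 8.16% lower at 8 h. In the fit used here, Mrpl12 had 47.6, 62.7 and 47.5 RPKM in RA at 4 h, against 57.9, 83.5 and 84.1 RPKM in EV (-0.50 ± 0.15, adjusted p = 0.064), with 1 RA library above the lowest EV library. The members' median was 0.06 at 4 h and -0.01 at 8 h, against 0.02 and 0.01 over all tested genes, and at 8 h its sign turned with centring on library medians, where it was 0.01.

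**Figure D4:**
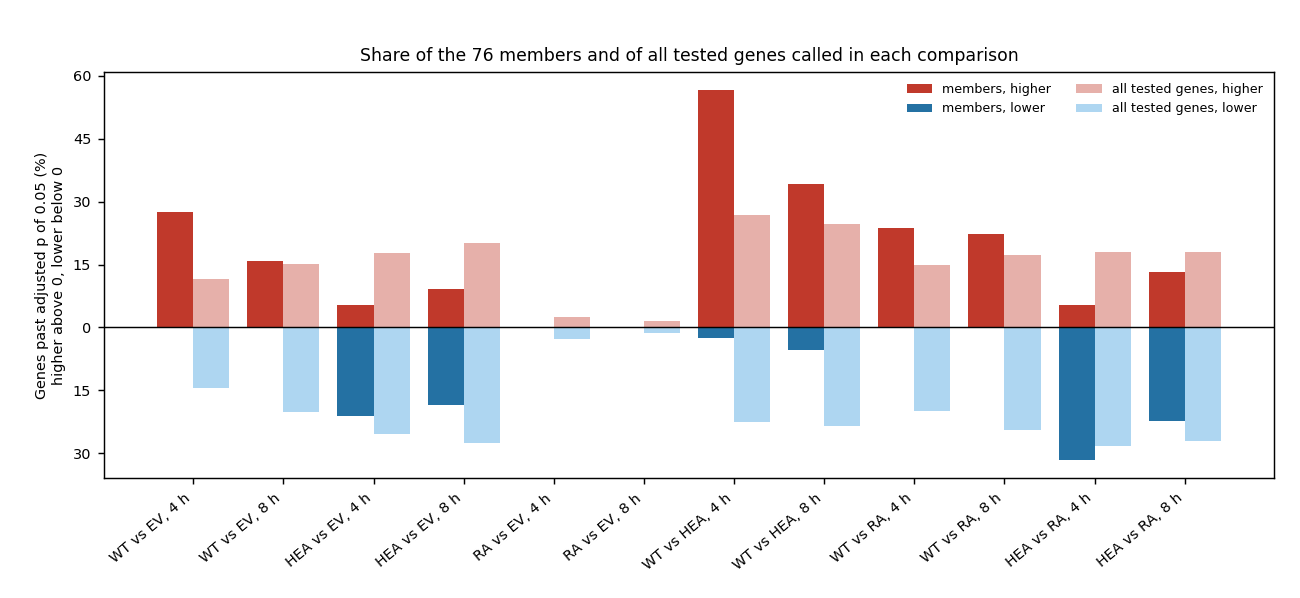
Share of the 76 members (dark) and of all 12268 tested genes (light) past an adjusted p of 0.05, higher above 0 and lower below 0, in each comparison. Members reach 27.6% higher in WT against EV at 4 h and 56.6% higher in WT against HEA at 4 h, and 0 in RA against EV.

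Set directly against each other, WT and HEA had the largest number of members called. At 4 h, 43 members were higher in WT than in HEA and 2 were lower, 56.6% and 2.63% of the members, against 26.9% and 22.6% of all tested genes. At 8 h, 26 were higher and 4 lower, 34.2% and 5.26%, against 24.6% and 23.4% of all tested genes. The median member was 0.29 higher in WT at 4 h and 0.17 higher at 8 h on the log2 scale, against 0.03 and 0.01 over all tested genes. With quantile normalisation, and likewise after removal of the reads-per-base trend, 25 were higher and 8 lower at 8 h. Without WT replicate 3 the count at 4 h was 27, and with only the compared groups 26. Without the libraries that stood apart, 33 were higher and 3 lower at 4 h and 37 and 5 at 8 h. By subunit, 28 of 49 large-subunit and 15 of 26 small-subunit members were higher in WT at 4 h, and 16 and 10 at 8 h. Of those higher at 4 h, 24 were also higher at 8 h, 55.8% of the members called at 4 h and 92.3% of those called at 8 h. Mrpl4 and Mrps12 were lower in WT than in HEA at both times.

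Mrpl22 was higher in WT than in HEA by 0.92 ± 0.13 at 4 h (adjusted p = 7.13e-06) and 0.88 ± 0.13 at 8 h (adjusted p = 1.04e-05), its HEA libraries having 30.8, 29.7 and 30.9 RPKM at 4 h and 31.4, 35.9 and 31.2 RPKM at 8 h. Mrpl49 was higher in WT by 0.64 ± 0.10 (adjusted p = 1.42e-05) and 0.54 ± 0.10 (adjusted p = 8.42e-05), with 43.6, 42.0 and 54.5 RPKM in WT at 4 h and 48.4, 48.9 and 44.0 RPKM at 8 h. The WT levels of Mrpl49 overlapped those of EV at both times. This comparison uses the same WT and HEA libraries as those against EV and is not independent of them.

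Between WT and RA, 18 members were higher in WT at 4 h and 17 at 8 h, 23.7% and 22.4%, with none lower, against 15% higher and 19.9% lower of all tested genes at 4 h and 17.3% higher and 24.4% lower at 8 h. Mrpl22 was higher in WT by 0.68 ± 0.13 (adjusted p = 0.000387) and 0.79 ± 0.13 (adjusted p = 5.67e-05). Mrps30 was higher by 0.48 ± 0.09 (adjusted p = 0.000325) and 0.52 ± 0.09 (adjusted p = 8.35e-05), and Mrpl16 by 0.52 ± 0.11 (adjusted p = 0.000952) and 0.66 ± 0.11 (adjusted p = 6.62e-05). Of the members higher at 4 h, 14 were also higher at 8 h, which are 77.8% and 82.4% of the lists. At 4 h the count was 9 without WT replicate 3, 10 without RA replicate 1, 11 without RA replicate 3, 10 with only the compared groups and 12 without the libraries that stood apart, and at 8 h it was 10 without WT replicate 1 and 26 without the libraries that stood apart.

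Between HEA and RA, 4 members were higher in HEA and 24 lower at 4 h, 5.26% and 31.6%, against 18% and 28.3% of all tested genes. At 8 h, 10 were higher and 17 lower, 13.2% and 22.4%, against 17.9% and 27%. The balance moved here too. It was 9 higher and 19 lower at 4 h and 13 and 13 at 8 h with centring on library medians, and 9 and 17 at 4 h and 13 and 10 at 8 h with voom. With quantile normalisation it was 9 and 25 at 4 h, and after removal of the reads-per-base trend 11 and 20 at 4 h and 14 and 14 at 8 h. Mrpl49 was lower in HEA than in RA at 4 h, with -0.70 ± 0.10 (adjusted p = 6.89e-06), and Mrpl24 at 8 h, with -0.52 ± 0.07 (adjusted p = 7.72e-06), and both passed at the other time too. Without RA replicate 2, 15 members were lower at 4 h. Without HEA replicate 1, 8 were lower at 8 h. The 10 members higher at 8 h became 6 without HEA replicate 2, 5 without HEA replicate 3 and 5 without RA replicate 2.

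Over time within a form, 2 members were higher at 8 h than at 4 h in WT and none was lower, 2.63% of the members, against 4.46% higher and 4.0% lower of all tested genes. Mrps27, a small-subunit protein of the pentatricopeptide repeat type, had 27.4, 22.7 and 21.3 RPKM in WT at 8 h, against 16.6, 17.3 and 14.5 RPKM in WT at 4 h (0.54 ± 0.14, adjusted p = 0.0203). Mrpl37 of the large subunit had 40.4, 39.9 and 41.9 RPKM at 8 h, against 37.1, 31.4 and 27.9 RPKM at 4 h (0.35 ± 0.10, adjusted p = 0.041). Neither call was kept without WT replicate 1 at 8 h or without WT replicate 3 at 4 h, where the count was 0. Mrpl37 was lost on leaving out any WT library other than replicate 1 at 4 h (adjusted p between 0.0684 and 0.206), and without the libraries that stood apart (adjusted p = 0.238). It was also lost without the filter, with centring on library medians, without the intensity trend and with voom (adjusted p between 0.0505 and 0.059). With only the compared groups in the fit both calls ended (adjusted p = 0.162 for Mrps27 and 0.215 for Mrpl37). Against EV, Mrpl37 differed by -0.01 ± 0.10 at 4 h (adjusted p = 0.955) and rose by 0.30 ± 0.10 at 8 h (adjusted p = 0.0263), and for Mrps27 the values were -0.18 ± 0.14 (adjusted p = 0.369) and 0.21 ± 0.14 (adjusted p = 0.258). The 8 h rise of Mrpl37 was lost without WT replicate 1 (adjusted p = 0.0549), WT replicate 3 (adjusted p = 0.0738) or EV replicate 2 (adjusted p = 0.107). In HEA, RA and EV no member passed between the times with limma, against 1.26%, 0.155% and 0% of all tested genes higher and 2.08%, 0.0652% and 0.0245% lower, and 7, 4 and 3 members had an unadjusted p under 0.05, against 18.2%, 9.87% and 11.7% of all tested genes.

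The changes can be set beside the promoter letters. In WT against EV at 4 h the median was 0.16 for the 5 members with CACGTG and 0.18 for the 62 without, and at 8 h it was 0.11 and 0.08. Of the 5, Mrpl20 and Mrpl36 were called higher at 4 h and Mrpl37 at 8 h. With the variant E-box the medians were 0.19 for 13 members with it and 0.18 for 54 without at 4 h, and 0.08 and 0.09 at 8 h. In HEA against EV at 8 h, the 24 members with the ETS core had a median of 0.01, with 5 higher and 4 lower, and the 43 without it a median of -0.11, with none higher and 9 lower, where 20.2% of all tested genes were higher and 27.5% lower, so that neither set had a share of falls above that of all genes. At 4 h the medians were -0.04 with the ETS core and -0.14 without. In WT against EV at 8 h the medians were 0.074 with the ETS core and 0.112 without. For the NRF1 core they were -0.035 with and 0.108 without, and for the YY1 core 0.135 and 0.074. These splits are a part of those computed and are given as a description, with no test.

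Other genes of mitochondrial gene expression were counted by list. Calls of the listed genes, in this and the next paragraphs, were not checked under the alternative fits or with libraries left out. Of 6 mitoribosome proteins under other symbols, 2 were higher in WT at 4 h and 1 at 8 h, against 11.6% and 15.2% of all tested genes, and none lower. Called at both times was Dap3, a GTP-binding small-subunit protein, which rose by 0.20 ± 0.07 at each time (adjusted p = 0.0423 and 0.0347). In HEA, Dap3 rose by 0.19 ± 0.07 (adjusted p = 0.0364) and 0.38 ± 0.07 (adjusted p = 0.000228), and 2 genes of the list were lower at each time, Gadd45gip1 and Ict1. Of 25 genes for assembly and rRNA processing, 7 were higher in WT at 4 h and 7 at 8 h, with 1 lower at 8 h, and in HEA 4 were higher and 8 lower at 4 h and 6 and 8 at 8 h. The GTPase genes Mtg2 and Noa1, both for ribosome assembly, rose in WT at 8 h by 0.59 ± 0.09 (adjusted p = 3.54e-05) and 0.99 ± 0.19 (adjusted p = 0.000353). Noa1 had 41.0 RPKM in WT and 20.4 RPKM in EV at 8 h as means, and it fell in HEA by 0.63 ± 0.19 at 4 h (adjusted p = 0.0105) and 0.46 ± 0.19 at 8 h (adjusted p = 0.0475). Rbfa, a factor that binds the small-subunit rRNA, rose by 0.55 ± 0.12 in WT at 8 h (adjusted p = 0.00101). Mettl15, an rRNA methyltransferase, went the other way and fell by 0.64 ± 0.18 (adjusted p = 0.00965).

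Of 12 translation factors, 2 were higher in WT at 4 h, and 3 were higher and 1 lower at 8 h, while in HEA none was higher, 6 were lower at 4 h and 5 at 8 h. For these lists the shares of all tested genes called in HEA were 17.7% higher and 25.5% lower at 4 h and 20.2% higher and 27.5% lower at 8 h, and in WT 14.4% and 20.1% were lower. Tsfm, Taco1 and Tufm rose in WT at 8 h by 0.41 ± 0.09 (adjusted p = 0.00147), 0.45 ± 0.11 (adjusted p = 0.0041) and 0.24 ± 0.07 (adjusted p = 0.00785). Tufm and Tsfm, the elongation factor and its exchange factor, fell in HEA at 8 h by 0.23 ± 0.07 (adjusted p = 0.00809) and 0.27 ± 0.09 (adjusted p = 0.0196). Mtfmt, which formylates the initiator tRNA, fell in WT by 0.41 ± 0.09 at 8 h (adjusted p = 0.00151).

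Some genes that load tRNAs or copy mitochondrial DNA had larger fold changes in WT than any member of the family. Of 20 mitochondrial tRNA synthetases and related enzymes, 6 were higher and 1 lower in WT at 4 h, and 7 higher and 2 lower at 8 h. Mars2, the methionyl-tRNA synthetase, had 42.1 RPKM in WT and 18.9 RPKM in EV at 8 h as means and rose by 1.13 ± 0.10 (adjusted p = 3.36e-08). Nars2 and Yars2 rose by 0.71 ± 0.11 (adjusted p = 4.45e-05) and 0.41 ± 0.09 (adjusted p = 0.00135), whereas Ears2 fell by 0.75 ± 0.18 (adjusted p = 0.00306). Of 8 genes for mitochondrial DNA and its transcription, 5 were higher in WT at each time and none was lower. Peo1, the replicative helicase, rose by 0.70 ± 0.08 at 8 h (adjusted p = 1.78e-06), Polg2, the accessory subunit of the DNA polymerase, by 0.82 ± 0.15 (adjusted p = 0.000344), and Tfb2m, a transcription initiation factor, by 0.62 ± 0.13 (adjusted p = 0.000773). Peo1, also named Twnk, overlaps the member Mrpl43 in RefSeq.

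Of 7 nuclear regulators tested, 1 was higher in WT at 4 h and 2 at 8 h, both counts including Ppargc1b, a coactivator of mitochondrial biogenesis. That gene passed the level filter only through the groups where it was high and so had to differ, and its means of 2.12 RPKM in WT and 0.0994 RPKM in EV at 8 h are given as a description. Pprc1, a related coactivator, rose by 0.67 ± 0.15 (adjusted p = 0.00116). The genes of the factors whose cores were searched in the promoters did not pass in WT at 8 h, with 0.14 ± 0.06 for Nrf1 (adjusted p = 0.0647), -0.09 ± 0.16 for Gabpa (adjusted p = 0.709) and -0.01 ± 0.07 for Yy1 (adjusted p = 0.938).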

How the data were processed

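RNA-seq was analysed for 24 libraries in 8 groups of 3, defined by vector and time in OHT (4 or 8 h). Per the labels' protocols, libraries came from total RNA with a stranded kit. For alignment and counting, TopHat2 (2.0.8), featureCounts (1.4.5-p1), SAMtools and TopHat are named in the submitters' processing notes, along with DESeq2 and the build mm9. Per the file headers, the authors deposited an RPKM value for each gene in each library. A second kind of file, deposited by the authors for each contrast with EV, holds the log2 fold change and its error, raw and adjusted p-values, and 2 scores (a base mean and a test statistic), and is used only where named.

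RPKM was tested with limma 3.58.1 in R 4.3.3, with an intensity trend, on log2(RPKM + 0.5), which understates changes of low genes. The test was two-sided, and 12268 of 21671 genes with 1 RPKM in at least 3 libraries were tested. All 24 libraries entered 1 fit (16 residual degrees of freedom), with Benjamini-Hochberg adjustment over all tested genes within each comparison at 0.05. The fit was tested on simulated data, with independent reads and the same dispersion for every gene. No simulated library stood apart from its group, so this does not test how the fit deals with such libraries. Reads could be recovered from the steps in RPKM, where 100% of 362673 non-zero values were whole to within 0.01 read. They served for depth (median 10.9 M) and for voom with hand-coded TMM scaling. Python 3.11.15 with pandas 2.3.3, numpy 2.4.6 and matplotlib 3.10.9 did the rest.

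Members and gene lists were chosen with earlier results of these data known. Values per library are given for the members with the largest or most significant changes in each comparison, the 3 highest and 3 lowest in level, and the stalk and S18 members. The other lists name up to 3 genes per direction by p in WT against EV at 8 h; a gene among these is not reported here. Further members named were called in the comparison, and Nrf1, Gabpa and Yy1 were named after their values were seen. Alternatives were other pseudocounts, filters, scalings, fits and left-out libraries. Replicate numbers were not used as pairs in the main fit.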

Additional observations from a re-analysis of the deposited data

Results flagged for a closer look

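Mrpl16 was singled out because every WT library lay above and every HEA library below all EV libraries of its time, and the difference between WT and HEA passed the test. That log2 difference was 0.95 at 4 h and 1.22 at 8 h (limma, adjusted p = 5.06e-07 and 1.08e-08), in 3 of 3 libraries of each group. Both differences passed in each alternative run, leave-one-out fits included.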

How the results depend on the processing

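The reads per member and library (95.0 to 1017 on average) limit the low members, and most changes are close to the spread between libraries. Of the values of the 95 named calls under the alternatives, none turned its direction, 1595 stayed past the threshold and 115 did not. Of the counts of calls, 648 stayed within 1.5 times and 72 did not. The 648 include comparisons with no member called in either fit, so they overstate the stability of the other counts. The cause of these shifts was not tested, except that fewer libraries in a fit leave it fewer degrees of freedom. Without the 3 farthest libraries, an alternative chosen after seeing the data, 87 of the 95 named calls stayed past the threshold. The 8 lost calls were all in comparisons that use WT at 4 h. Calls in HEA against EV at 8 h and in HEA against RA use none of the removed libraries. Their log2 fold changes could not move, so that they stayed says little.

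With centring on library medians, members higher in HEA against EV numbered 7 at 4 h and 13 at 8 h, and 9 were higher in HEA against RA at 4 h. With quantile normalisation these were 9, 12 and 9, and after removal of a trend on reads per base 10, 13 and 11, while 10 were lower in HEA against EV at 4 h with that trend removed. Quantile normalisation and the trend removal each gave 1 member higher in RA against EV at 4 h, 8 lower in WT against HEA at 8 h and 2 lower in WT against RA at 4 h, and at 8 h quantile normalisation gave 2 and the trend removal 1. With voom on recovered reads, 10 were lower in HEA against EV at 4 h, 1 lower in RA against EV at 4 h, 9 higher in HEA against RA at 4 h and 10 lower at 8 h. With only the groups compared in the fit, 3 were higher in WT against EV at 4 h and 1 lower in RA against EV at 8 h. That fit gave 26 higher and 1 lower in WT against HEA at 4 h, and in WT against RA 10 higher and 1 lower at 4 h and 2 lower at 8 h. Without the filter 1 was lower in WT against HEA at 4 h. The members higher at 8 h than at 4 h in WT were 1 without the filter, with centring, without the intensity trend and with voom, and 0 with only the groups compared. On leaving out the 3 farthest libraries, 5 were higher in WT against EV at 4 h and 19 at 8 h, 11 higher in HEA against EV at 8 h, 2 lower at 4 h and 26 higher at 8 h in WT against RA, and 7 higher in HEA against RA at 4 h.

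Leaving out each library in turn, members higher in WT against EV ranged from 4 to 28 at 4 h and from 7 to 13 at 8 h. For HEA against EV, members lower ranged from 7 to 18 at 4 h, and at 8 h from 4 to 9 higher and 9 to 15 lower. For RA against EV, 0 to 1 were lower at 4 h. For WT against HEA, 27 to 46 were higher and 1 to 3 lower at 4 h, and 1 to 5 lower at 8 h. For WT against RA, 9 to 20 were higher and 0 to 1 lower at 4 h, and 10 to 22 higher and 0 to 1 lower at 8 h. For HEA against RA, 15 to 27 were lower at 4 h, and at 8 h 5 to 10 higher and 8 to 19 lower. Members higher at 8 h than at 4 h in WT ranged from 0 to 2.

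Deviations of libraries with the same replicate number correlated between -0.359 and 0.407, over 0.1 in 11 of 36 pairs. For libraries with other numbers it was 21 of 72 pairs. These correlations do not settle whether equal numbers mark paired libraries. With the replicate number as a block, 21 members were higher in WT against EV at 4 h and 12 at 8 h, 4 higher and 15 lower in HEA against EV at 4 h and 7 and 14 at 8 h, and none passed in RA against EV. In WT against HEA the block gave 43 higher and 2 lower at 4 h and 25 and 5 at 8 h, in WT against RA 17 higher at each time, and in HEA against RA 4 and 24 at 4 h and 9 and 15 at 8 h.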
